A study of Mus musculus with 4 samples.

Results

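The semaphorins, plexins, slits and robos of the mouse were followed through sorted vessel progenitor cells of fat and lung. The genes were taken by symbol: 36 of the 31017 gene symbols in the deposited matrices, namely 20 semaphorins, 9 plexins (their receptors), 3 slits and 4 robos (the slit receptors). Levels are UMIs (unique molecular identifiers, 1 per captured transcript) summed over the kept cells of a library and scaled to CPM, counts per 1e6 UMIs of the library. Of the 36 genes, 22 reached 30 CPM in at least 1 library and are described with all their values, and 14 stayed below. The rule uses names and no measured value, and it was set with earlier results of these data known.

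Cells came from C57BL/6 mice and were sorted from fat and from lung into populations named P1 and P2, with 1 library for each of the 4 combinations. Both sorts took cells negative for CD45 and Ter119, the surface proteins of leukocytes and red cells, and positive for Tie2, a receptor of endothelial cells. P1 was CD31+, CD105high, Sca1low and PDGFRa-, and P2 was PDGFRa+, Sca1high, CD105low and CD31-. Transcripts were captured at their 3' ends in droplets with 10x Genomics v3.1 chemistry. How many animals were used, their sex and age, and whether they were pooled is not given in the labels. With 1 library per group no difference has a replicate check, so no test was made, and all intervals are exact 95% intervals for counting error only.

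Semaphorins are guidance ligands that are secreted (class 3), held in the membrane (classes 4, 5 and 6) or tethered by a lipid anchor (class 7). They act through plexins, and most class 3 members need a neuropilin, Nrp1 or Nrp2, as co-receptor. Plexins lower integrin adhesion and reshape the actin skeleton through small GTPases, and in vessels they steer sprouting and keep neighbouring structures apart. Slits are large secreted ligands of Robo1 and Robo2, first known from axon guidance, and Robo4 is a divergent robo of endothelial cells.

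The P1 labels need care. The fat-labelled P1 library held lung genes, with Foxf1, a transcription factor of lung mesenchyme and endothelium, at 716 CPM against 3.58 in lung-labelled P1. Fabp4, a fatty acid binding protein abundant in the capillaries of fat, stood at 12379 CPM in lung-labelled P1 against 94.2 in fat-labelled P1. Sftpc, the surfactant gene of lung alveoli, was at 738 CPM in fat-labelled P1 and had no UMI in lung-labelled P1. These markers go against the tissue named on the P1 libraries, so both are called by their label, and P1 results appear first under the labels and then with the 2 P1 libraries exchanged. The P2 libraries matched their labels in these genes, with Sftpc at 0.138 CPM in fat and 3824 in lung.

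After filtering, the libraries held 1948 (fat-labelled P1), 7898 (fat P2), 652 (lung-labelled P1) and 1436 (lung P2) cells, with a median of 2964, 5151.5, 1561 and 2150 UMIs per cell. For a gene without a UMI the limit of 3 counts equals 0.461, 0.0688, 2.68 and 0.773 CPM, listed likewise. The 36 genes gave 23856, 60936, 2061 and 7365 UMIs, and any pair of libraries shared at most 1 cell barcode. Summed over 12 endothelial markers the P1 libraries stood at 16795 and 10802 CPM and the P2 libraries at 28.8 (fat) and 704 (lung). Summed over 12 fibroblast markers P1 stood at 68.8 (fat-labelled) and 1281 (lung-labelled) CPM and P2 at 47593 (fat) and 14915 (lung), and no marker of either list was at 0 in any library. P1 against P2 thus sets libraries rich in endothelial markers against libraries rich in fibroblast markers, and in summed UMIs fewer cells of a type and less RNA per cell cannot be told apart. Of the genes behind the sort, Pecam1 (CD31) stood at 1757 and 1223 CPM in P1 and 2.39 and 88.1 in P2 (fat label first), and Pdgfra at 9.22 and 14.3 in P1 and 447 and 1752 in P2. Ly6a, which encodes Sca1, had the opposite order to the gate, with 2423 and 1750.3 CPM in P1 against 1921 and 205 in P2. Tek (Tie2) was at 685 and 228 CPM in P1 and 164 and 40.7 in P2. In lung-labelled P1 the barcodes varied in their marker shares by only 1.09 (endothelial) and 1.04 (fibroblast) times the variance that random sampling gives, against at least 5.54 times elsewhere, so its barcodes are not shown to be separate cells. Clusters of this library are therefore not described, and the alternatives that treat its barcodes as cells, such as the 564 in endothelial-like clusters or a mean over cells, carry that limit.

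By the 4-fold rule given below, Robo4, Sema3f, Sema3g and Sema7a were higher in P1 under every pairing of a P1 with a P2 library. So were 1.90% of the 7672 genes at 30 CPM or more in some library. Slit3 was higher in P2 under every pairing, as were 2.09% of those genes. Sema3f had no RefSeq promoter at hand. The promoters of Robo4, Sema3g, Sema7a and Slit3 are shown as the sequence context of these opposite patterns, from 250 bases before to 50 after the start of the gene on its own strand, 5′ to 3′, as RefSeq gives them on GRCm38.p6. Capitals mark CAGCTG, an E-box, the kind of site that basic helix-loop-helix factors bind. The windows are chr9:37401722-37402021 for Robo4, chr14:31217623-31217922 for Sema3g, chr9:57939862-57940161 for Sema7a and chr11:35121206-35121505 for Slit3, each on the plus strand.
Robo4: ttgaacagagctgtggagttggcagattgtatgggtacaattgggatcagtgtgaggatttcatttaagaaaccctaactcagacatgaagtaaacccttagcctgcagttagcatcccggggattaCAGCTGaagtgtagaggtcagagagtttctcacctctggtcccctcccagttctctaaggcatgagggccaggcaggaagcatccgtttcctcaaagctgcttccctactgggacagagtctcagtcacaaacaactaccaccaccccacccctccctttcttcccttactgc
Sema3g: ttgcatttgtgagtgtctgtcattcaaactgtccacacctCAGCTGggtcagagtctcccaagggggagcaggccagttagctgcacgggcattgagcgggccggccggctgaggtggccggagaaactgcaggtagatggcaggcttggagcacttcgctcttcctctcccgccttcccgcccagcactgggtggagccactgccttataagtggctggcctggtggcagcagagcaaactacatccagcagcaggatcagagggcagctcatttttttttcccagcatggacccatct
Sema7a: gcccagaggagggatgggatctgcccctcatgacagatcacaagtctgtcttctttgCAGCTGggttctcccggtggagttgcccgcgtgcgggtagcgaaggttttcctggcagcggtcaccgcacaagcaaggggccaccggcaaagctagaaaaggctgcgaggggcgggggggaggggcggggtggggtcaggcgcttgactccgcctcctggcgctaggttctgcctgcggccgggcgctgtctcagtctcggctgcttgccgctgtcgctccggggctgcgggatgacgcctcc
Slit3: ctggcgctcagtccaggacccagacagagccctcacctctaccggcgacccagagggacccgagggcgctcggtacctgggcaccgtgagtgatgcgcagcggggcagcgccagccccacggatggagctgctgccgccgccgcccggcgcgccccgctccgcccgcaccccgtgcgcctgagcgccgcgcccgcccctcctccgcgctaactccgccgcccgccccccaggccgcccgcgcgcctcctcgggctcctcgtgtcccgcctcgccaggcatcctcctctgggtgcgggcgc

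RefSeq promoters were at hand for 30 of the 36 genes, and 4 motifs were searched on both strands. GGAA, the core of ETS factor sites, was in 28 of the 30 windows (93.3%) and in 95.9% of all 27025 promoters of this length. CGGAAG, a longer ETS site that holds the first motif, was in 1 of 30 (3.33%) against 17.2% of all promoters. AGATAA, a site of the GATA-binding factors, was in 0 of 30 against 11.4% of all. CAGCTG, which reads the same on both strands, was in 5 of 30 (16.7%) against 16.1% of all promoters. The 5 were Robo4, Sema3g and Sema7a, shown above, and Sema4g and Plxnb3, and the choice to display this motif was made after its matches had been seen. A match describes letters in a window and not a bound site.

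**Figure D1:**
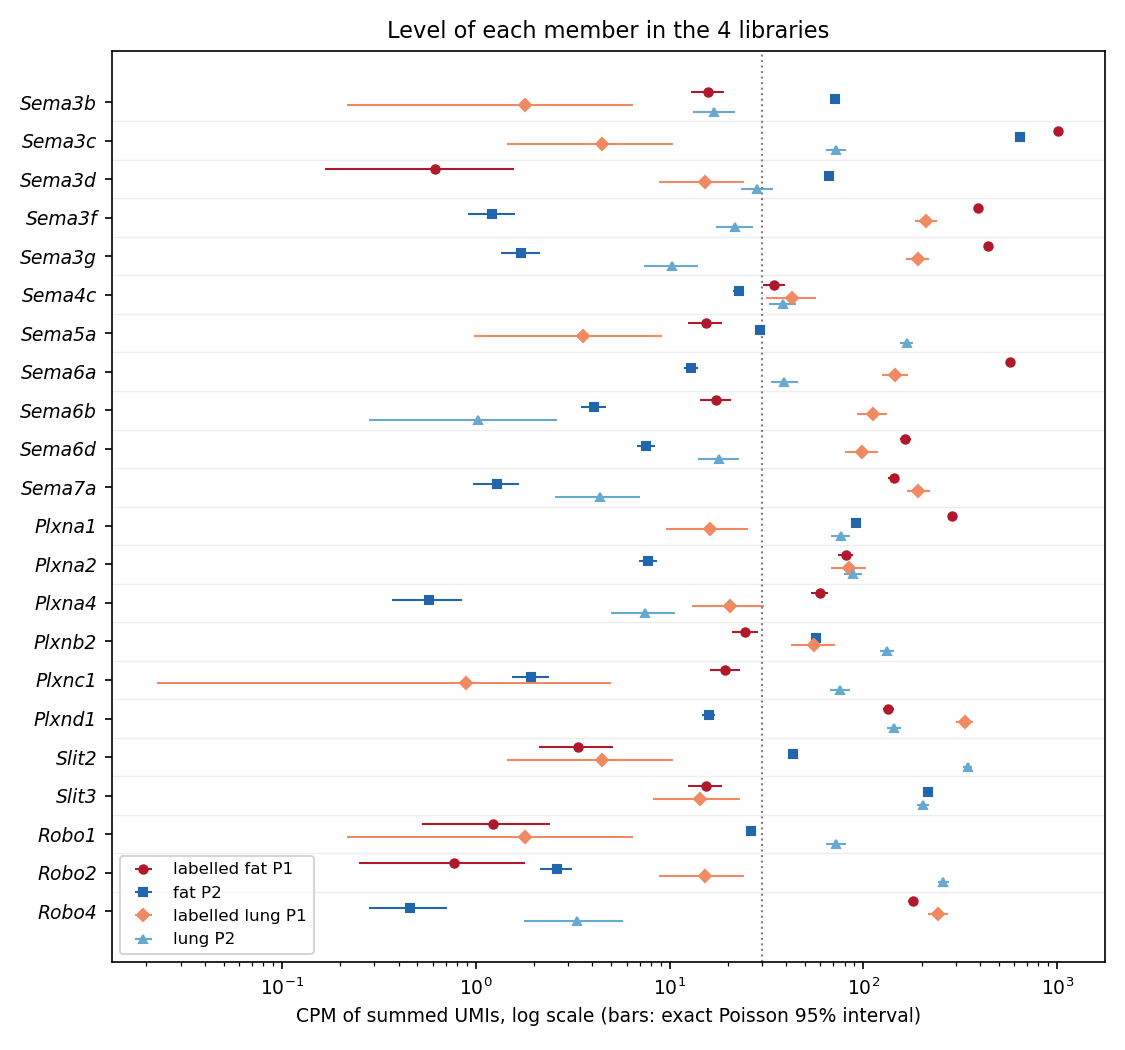
CPM of summed UMIs (log axis) of the 22 genes that reached 30 CPM, marked by the dotted line, in each of the 4 libraries; bars are exact Poisson 95% intervals. Robo4, Sema3f, Sema3g and Sema7a lie to the right in both P1 libraries (red and orange) and Slit3 in both P2 libraries (blue), while Sema3c is near 1000 CPM in fat-labelled P1 (1005) and at 4.47 in lung-labelled P1.

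Family by family, the libraries differed in which branch was abundant. Summed class 3 semaphorins stood at 1893 CPM in fat-labelled P1, 819 in fat P2, 434 in lung-labelled P1 and 173 in lung P2, so that fat-labelled P1 was highest. Summed semaphorins of classes 4 to 7 stood at 958, 109, 611 and 297 CPM, listed likewise, and plexins at 613, 181, 518 and 545, both lowest in fat P2. Slits summed to 18.7 and 18.8 CPM in the P1 libraries and 259.7 and 549 in fat and lung P2. Robo1, Robo2 and Robo3 together stood at 2.0 and 17 CPM in P1 and 28.8 and 331 in P2, again with lung P2 highest.

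Between P1 and P2 these genes moved in both directions. A difference was called when 1 library was at least 4-fold above the other after 10 CPM had been added to each, and a gene entered if either library held at least 30 CPM of it. Of 17 members that entered fat-labelled P1 against fat P2, 9 were higher in P1 (Plxna2, Plxna4, Plxnd1, Robo4, Sema3f, Sema3g, Sema6a, Sema6d and Sema7a), where 9.76% of all 6689 genes entered were. In the same comparison 3 were higher in P2 (Sema3d, Slit2 and Slit3), against 8.34% of all genes. The median log2 ratio of the 17 was 2.36, and that of all genes entered was 0.37.

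In lung-labelled P1 against lung P2, 19 members entered. Of these, 5 were higher in P1 (Robo4, Sema3f, Sema3g, Sema6b and Sema7a), against 6.41% of all 6830 genes entered. Another 7 were higher in P2 (Plxnc1, Robo1, Robo2, Sema3c, Sema5a, Slit2 and Slit3), against 9.06% of all genes. The median log2 ratio of the 19 was -0.07, beside -0.15 over all genes. Members that entered had to be high in 1 of the 2 libraries, so these shares describe the members that entered and not the families.

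With the P1 libraries exchanged, lung-labelled P1 against fat P2 gave 9 members higher in P1, where 7.90% of all genes were, and 3 higher in P2, against 7.38%. Fat-labelled P1 against lung P2 gave 7 higher in P1, against 6.53% of all genes, and 6 higher in P2, against 8.28%. Robo4, Sema3f, Sema3g and Sema7a were higher in P1 in all 4 pairings, as were 1.90% of the 7672 genes at 30 CPM or more in some library. Slit3 was higher in P2 in all 4, as were 2.09% of those genes. Sema3c was called in both directions, depending on the P1 library taken. The pairings share libraries and are not independent.

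**Figure D2:**
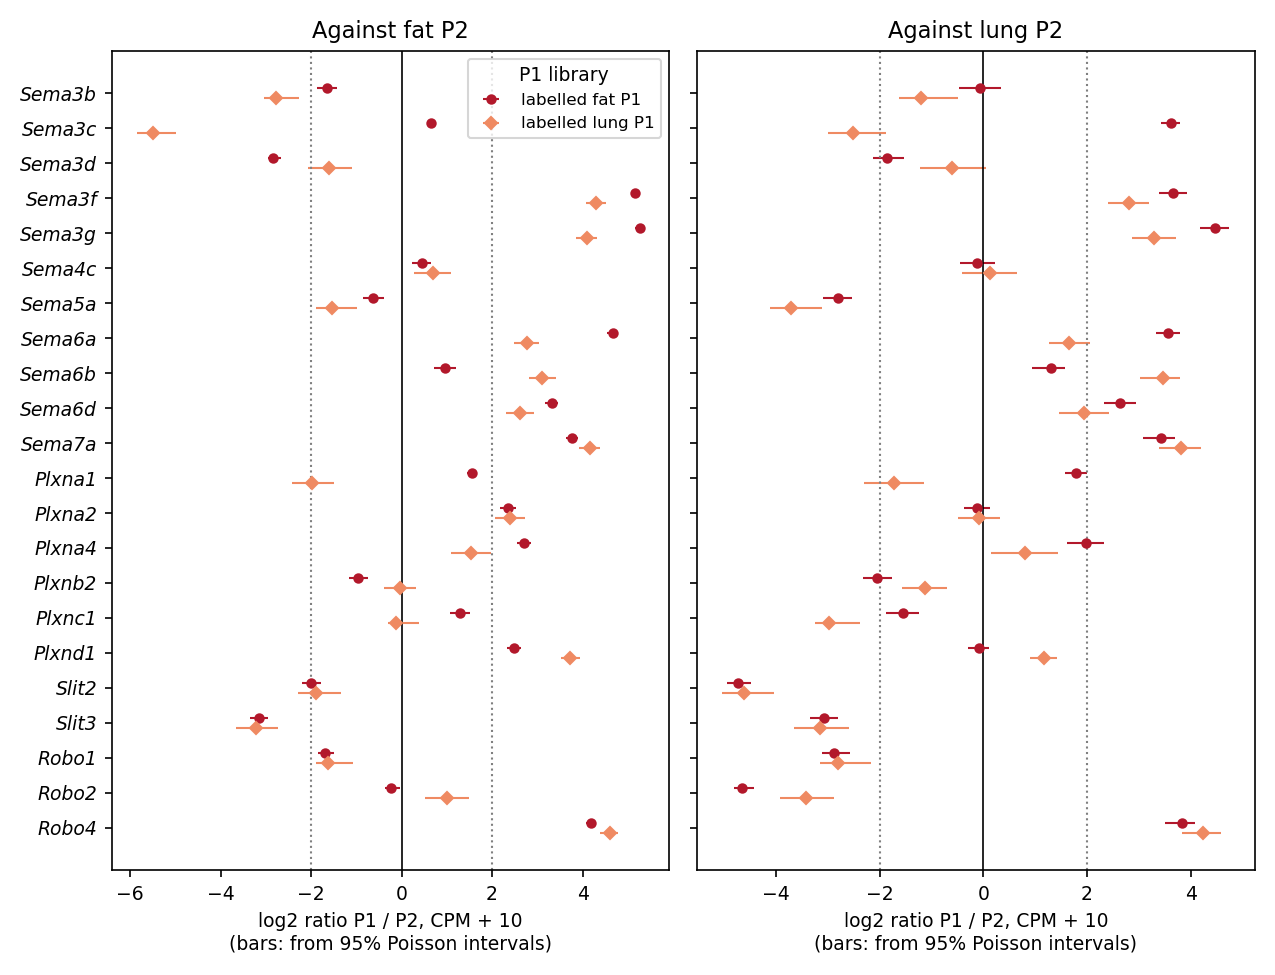
Log2 ratio of P1 over P2 after adding 10 CPM for the 22 genes, against fat P2 (left) and lung P2 (right), with each P1 library as its own marker; bars are built from Poisson 95% intervals and dotted lines mark 4-fold. Sema3c lies at 0.64 and -5.49 on the left, whereas Robo4, Sema3f, Sema3g and Sema7a lie beyond 2 and Slit3 beyond -2 in both panels with both P1 libraries.

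Among the secreted semaphorins, Sema3f and Sema3g marked both P1 libraries. Sema3f, a repellent that signals through Nrp2, stood at 392 CPM in fat-labelled P1, 1.22 in fat P2, 211 in lung-labelled P1 and 21.6 in lung P2. It was 323-fold higher (246 to 432) in fat-labelled P1 than in fat P2 and 9.74-fold higher (7.57 to 12.7) in lung-labelled P1 than in lung P2, with both P1 libraries high and both P2 libraries low. Sema3g (chr14:31217860-31230352 on GRCm38), known as a semaphorin made by endothelium, stood at 439.9 CPM in fat-labelled P1, 1.72 in fat P2, 190.4 in lung-labelled P1 and 10.3 in lung P2. Both P1 libraries were again above both P2 libraries, with folds of 256 (203 to 326) in the fat pair and 18.5 (13.1 to 26.6) in the lung pair. In both genes lung P2 lay above fat P2, and most lung P2 UMIs came from 34 endothelial-like cells in that library: 66.7% of those of Sema3f and 97.5% of those of Sema3g.

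Shares of barcodes with a UMI had the same order. A Sema3g UMI was found in 55.6% of fat-labelled P1 cells and 0.696% of fat P2 cells, and in 47.4% and 0.209% after cells had been thinned to 2000 UMIs. In the lung pair, where lung-labelled P1 barcodes are not shown to be separate cells, the shares were 27% and 0.836%, and 32.9% and 0.643% after thinning. Thinning kept 1491, 7191, 164 and 778 cells of the 4 libraries. As background, 0.663% of the 7544 fibroblast-like cells of fat P2 had a Sema3g UMI at a median depth of 5224 UMIs, against 53.5% of the 1491 endothelial-like cells of fat-labelled P1 at 2706.

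Sema3c, a ligand of neuropilins with A- and D-type plexins that is needed for the outflow tract of the heart, had the widest spread between the P1 libraries. It stood at 1005 CPM in fat-labelled P1, 641 in fat P2, 4.47 in lung-labelled P1 and 72.7 in lung P2. The lung-labelled P1 value rests on 5 UMIs, and its interval (1.45 to 10.4 CPM) overlaps none of the other 3. Fat-labelled P1 was 225-fold above lung-labelled P1 (96.3 to 693). It was 1.57-fold (1.53 to 1.61) above fat P2, short of a call, and lung P2 was 16.3-fold (6.89 to 50.5) above lung-labelled P1. With the P1 libraries exchanged, fat P2 was 143-fold above lung-labelled P1 (61.4 to 441) and fat-labelled P1 13.8-fold above lung P2 (12.3 to 15.6). The call in the lung pair as labelled (log2 -2.51) ended with all deposited barcodes (-1.50) and turned to 3.62 on exchange. It also ended with endothelial-like P1 and fibroblast-like P2 clusters alone (-1.50) and with the mean over cells (-1.86), which both treat lung-labelled P1 barcodes as cells.

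Sema3d and Sema3b were both highest in fat P2. Sema3d, a secreted repellent of endothelial cells, stood at 0.614 CPM in fat-labelled P1, 66.1 in fat P2, 15.2 in lung-labelled P1 and 28.4 in lung P2, so fat P2 lay highest and fat-labelled P1 lowest. Fat P2 was 108-fold above fat-labelled P1 (42 to 395), a call that ended on exchange, where fat P2 was 4.35-fold (2.71 to 7.48) above lung-labelled P1 (log2 -1.59). Sema3b, a secreted ligand known as a growth suppressor in tumours, stood at 15.8 CPM in fat-labelled P1, 71.3 in fat P2, 1.79 in lung-labelled P1 and 17 in lung P2. Fat P2 was 4.5-fold (3.7 to 5.54) above fat-labelled P1, which the 10 CPM added brought under the call at a log2 ratio of -1.65. Against lung-labelled P1, with 2 Sema3b UMIs, fat P2 passed it at -2.79.

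The membrane-bound semaphorins were led by class 6 in P1. Sema6a, a ligand of Plxna2 and Plxna4, stood at 571 CPM in fat-labelled P1, 12.9 in fat P2, 146 in lung-labelled P1 and 39.2 in lung P2. Both P1 values lay above both P2 values, 44.1-fold (40.4 to 48.3) in the fat pair and 3.72-fold (2.96 to 4.67) in the lung pair, where it was not called at a log2 ratio of 1.66. With the P1 libraries exchanged the ratio was 3.56, past 4-fold. It was also past 4-fold, at 2.38, in endothelial-like against fibroblast-like clusters, a value that rests on splitting the barcodes of lung-labelled P1. Sema6d, a ligand of Plxna1, stood at 165 CPM in fat-labelled P1, 7.57 in fat P2, 98.3 in lung-labelled P1 and 18 in lung P2, again with both P1 above both P2. It was 21.8-fold (19.2 to 24.7) higher in the fat pair and 5.45-fold (4.0 to 7.46) higher in the lung pair, where its log2 ratio of 1.95 was just short of the call and passed it with 1 CPM added (2.38) and on exchange (2.64). It passed in 3 further alternatives that treat lung-labelled P1 barcodes as cells (2.01 to 2.69).

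Sema6b separated the P1 libraries from each other. Sema6b, a ligand of Plxna4, stood at 17.4 CPM in fat-labelled P1, 4.08 in fat P2, 112 in lung-labelled P1 and 1.03 in lung P2, with lung-labelled P1 far above the other 3. Lung-labelled P1 was 6.44-fold (4.95 to 8.38) above fat-labelled P1 and 108-fold (41.3 to 404) above lung P2. After exchange, fat-labelled P1 was 16.8-fold (6.4 to 62.9) above lung P2, where neither reached 30 CPM and the log2 ratio of 1.31 lay under the call. In the 34 endothelial-like cells of lung P2 it stood at 7.63 CPM (0.924 to 27.6, 2 UMIs).

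Sema7a, the lipid-anchored semaphorin that binds Plxnc1 and integrins, stood at 144 CPM in fat-labelled P1, 1.28 in fat P2, 192 in lung-labelled P1 and 4.38 in lung P2. Both P1 libraries were high and both P2 libraries low, by 112-fold (85.4 to 149) in the fat pair and 43.9-fold (26.8 to 76.7) in the lung pair. Its receptor Plxnc1 had another order, given with the plexins. Sema5a, a transmembrane semaphorin with thrombospondin repeats, was instead highest in lung P2, at 15.4 CPM in fat-labelled P1, 29.2 in fat P2, 3.58 in lung-labelled P1 and 167 in lung P2. Lung P2 was 46.8-fold (18.2 to 172) above lung-labelled P1, which held 4 UMIs, and 5.73-fold (5.2 to 6.3) above fat P2. Sema4c, a ligand of Plxnb2, was the most even gene, at 34.7 CPM in fat-labelled P1, 22.7 in fat P2, 42.9 in lung-labelled P1 and 38.4 in lung P2. Its lowest and highest libraries differed 1.89-fold (1.38 to 2.52), and only fat P2, with the narrowest interval (21.3 to 24.2), was below the intervals of the other 3.

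The plexins did not move as a block. Plxnd1, the endothelial receptor of Sema3e, stood at 135 CPM in fat-labelled P1, 15.9 in fat P2, 334 in lung-labelled P1 and 144 in lung P2. Fat-labelled P1 was 8.48-fold (7.66 to 9.38) above fat P2, while lung P2 was close to fat-labelled P1 and 2.33-fold (2.04 to 2.66) under lung-labelled P1. Plxna2, a receptor of Sema6a, was level in 3 libraries and low in fat P2, at 80.9 CPM in fat-labelled P1, 7.75 in fat P2, 84 in lung-labelled P1 and 88.9 in lung P2. The fat pair differed 10.4-fold (9.09 to 12) and the lung pair 1.06-fold (0.84 to 1.34), the latter within counting error. For both genes fat P2 was the low library.

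Plxna1 and Plxna4, the other well-covered A-type plexins, were highest in fat-labelled P1. Plxna1 stood at 288 CPM in fat-labelled P1, 92.2 in fat P2, 16.1 in lung-labelled P1 and 76.5 in lung P2, so lung-labelled P1, with 18 UMIs, was the lowest and not beside the other P1 library. Fat-labelled P1 was 17.9-fold (11.3 to 30.3) above lung-labelled P1 and 3.13-fold (2.96 to 3.31) above fat P2, the latter not called. In the lung pair the direction was the opposite, with lung P2 4.76-fold (2.96 to 8.14) above lung-labelled P1, also not called. Plxna4 stood at 59.4 CPM in fat-labelled P1, 0.573 in fat P2, 20.6 in lung-labelled P1 and 7.47 in lung P2, with both P1 above both P2. It was 104-fold (69.2 to 162) higher in the fat pair, a call that ended on exchange at a log2 ratio of 1.53.

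Plxnb2 and Plxnc1 were highest in lung P2. Plxnb2, a receptor of class 4 semaphorins, stood at 24.6 CPM in fat-labelled P1, 56.9 in fat P2, 55.4 in lung-labelled P1 and 133 in lung P2, and lung P2 was 2.39-fold (1.84 to 3.17) above lung-labelled P1 and 2.33-fold (2.12 to 2.57) above fat P2, neither of them called. On exchange lung P2 was 5.4-fold (4.51 to 6.49) above fat-labelled P1, which was a call (log2 -2.05). Plxnc1, the receptor of Sema7a, stood at 19.4 CPM in fat-labelled P1, 1.93 in fat P2, 0.894 in lung-labelled P1 and 76 in lung P2. Lung-labelled P1 held 1 UMI, so that lung P2 was 85.1-fold above it with an interval of 15.1 to 3371. Fat-labelled P1 was 10.0-fold (7.56 to 13.4) above fat P2, in the opposite direction and below the 30 CPM needed to enter. On exchange the lung P2 excess over fat-labelled P1 was 3.93-fold (3.18 to 4.88) and was no longer a call (log2 -1.55).

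Slit2, Slit3 and Robo1 lay on the fibroblast side, and Robo4 on the endothelial side. Robo2 was high in lung P2 only, and its level in fat P2 was below that in lung-labelled P1. Slit3 (chr11:35121224-35708507), a secreted robo ligand, stood at 15.4 CPM in fat-labelled P1, 216 in fat P2, 14.3 in lung-labelled P1 and 204 in lung P2, with the P2 libraries at nearly 1 level and the P1 libraries at another. P2 was 14.1-fold (11.6 to 17.3) above P1 in the fat pair and 14.3-fold (8.73 to 25.1) in the lung pair, and 15.1-fold and 13.3-fold on exchange. Between the P2 libraries it differed 1.06-fold with an interval of 0.984 to 1.14, within counting error. A Slit3 UMI was found in 60.8% of fat P2 and 35.7% of lung P2 cells, and in 33.6% and 31.9% at 2000 UMIs, so the gap in shares was smaller at equal depth. The share was 4.02% in the endothelial-like cells of fat-labelled P1, taken as background, at a median depth of 2706 UMIs against 5224 in fat P2 fibroblast-like cells. Within these classes Slit3 stood at 14 CPM (10.8 to 17.9) in endothelial-like cells of fat-labelled P1, 219.6 (215 to 224) in fibroblast-like cells of fat P2 and 233 (216 to 251) in those of lung P2.

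Slit2, the other well-covered slit, stood at 3.38 CPM in fat-labelled P1, 43.6 in fat P2, 4.47 in lung-labelled P1 and 345 in lung P2. Both P2 libraries lay above both P1 libraries, and lung P2 7.93-fold (7.39 to 8.51) above fat P2. Lung P2 exceeded lung-labelled P1, which held 5 UMIs, 77.3-fold (33 to 238) and fat P2 exceeded fat-labelled P1 12.9-fold (8.49 to 20.6). The latter call was just past the threshold and ended without the highest doublet scores (-1.96) and on exchange (-1.89). A Slit2 UMI was found in 58.3% of lung P2 fibroblast-like cells (thinned 53.6%) at a median of 2109 UMIs, and in 0.402% of fat-labelled P1 endothelial-like cells (thinned 0.28%). Of the Slit2 UMIs of fat-labelled P1, 59.1% came from its 38 epithelial-like cells. Slit1, a slit of the nervous system, gave 1 UMI in the 4 libraries together.

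Robo2, a slit receptor, was found mainly in lung P2, at 0.768 CPM in fat-labelled P1, 2.61 in fat P2, 15.2 in lung-labelled P1 and 259 in lung P2. Lung P2 was 99.1-fold (81.5 to 121) above fat P2, 17-fold (10.6 to 29.4) above lung-labelled P1 and 337-fold above fat-labelled P1 (144 to 1041). Robo1, its close relative, lies 846 kb away from Robo2 on chromosome 16 and stood at 1.23 CPM in fat-labelled P1, 26.2 in fat P2, 1.79 in lung-labelled P1 and 72.2 in lung P2. Both P2 libraries were above both P1 libraries, which held 8 and 2 UMIs, and lung P2 was 2.76-fold (2.41 to 3.14) above fat P2. Lung P2 thus held the highest level of each of Slit2, Robo1 and Robo2. In fat-labelled P1 all Robo1 and Robo2 UMIs came from 38 epithelial-like cells, and its 1491 endothelial-like cells had no UMI of either gene.

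Robo4 (chr9:37401897-37415115) stood at 179.6 CPM in fat-labelled P1, 0.459 in fat P2, 243 in lung-labelled P1 and 3.35 in lung P2. It was 391-fold (252 to 643) higher in the fat pair and 72.6-fold (41.7 to 138) higher in the lung pair, and the P1 libraries differed only 1.35-fold (1.18 to 1.55). The few P2 UMIs were confined to small clusters: all 20 in fat P2 fell in 17 cells led by Fabp4, Aqp1 and Pecam1, and 12 of 13 in lung P2 fell in the 34 endothelial-like cells. None of the 7544 fibroblast-like cells of fat P2 had a Robo4 UMI (Clopper-Pearson upper bound 0.0489%), nor any of 1165 in lung P2 (upper bound 0.316%). In endothelial-like cells of fat-labelled P1 the share was 40.8%, at a lower median depth than in fat P2. Robo3, a neuronal robo whose 3' end faces that of Robo4 across 553 bases, had no UMI in any library.

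Set side by side, the P2 libraries of the 2 tissues differed in 7 of 15 members that entered. Higher in lung P2 were 6 (Plxna2, Plxnc1, Plxnd1, Robo2, Sema5a and Slit2), where 6.37% of all 6300 genes entered were, and higher in fat P2 was 1, Sema3c, against 3.65%. The median log2 ratio of the 15 was 1.10, beside 0.19 over all genes. Sema3c was 8.81-fold (7.84 to 9.95) higher in fat P2, Plxnc1 39.5-fold (30.9 to 50.9) higher in lung P2. Plxna2 and Plxnd1 were 11.5-fold (9.84 to 13.4) and 9.03-fold (8.06 to 10.1) higher in lung P2. TMM scaling lowered the median of all genes by 0.31 and moved the share of calls that were higher in lung P2 from 63.5% to 49.0%, and among the members it ended the call of Sema5a (1.88), which also ended with all deposited barcodes (1.99).

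The P1 libraries differed in fewer members. Of 14 that entered 3 were called, against 8.72% of all genes. Sema6b was higher in lung-labelled P1, where 4.27% of all 6493 genes entered were, and Plxna1 and Sema3c were higher in fat-labelled P1, against 4.45%. The median log2 ratio of the 14 was -0.32, beside -0.28 over all genes. Robo4, Sema7a, Sema4c and Plxna2 were within 1.35-fold of each other between these libraries. Sema3g, Sema3f and Sema6a were lower in lung-labelled P1 by 2.31-fold (2.01 to 2.67), 1.86-fold (1.63 to 2.13) and 3.92-fold (3.35 to 4.61), none of them called. Sema6a passed the call in endothelial-like clusters alone (-2.13) and by the mean over cells (-2.06), both of which treat lung-labelled P1 barcodes as cells.

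Within fat-labelled P1, where 1491 of 1948 cells (76.5%) fell in 8 endothelial-like clusters made without the 36 genes, the levels of several members differed between clusters beyond counting error. The aerocyte-like cluster (424 cells, with Fibin, Ednrb and Car4 among its leading genes, and named after the thin gas-exchange capillary cells of the lung) carried 999.9 CPM of Sema6a (952 to 1049.6), against 199 to 563 in the other 7. Sema7a stood at 387 CPM there (358 to 419) against 25.5 to 83, and this cluster gave 67.7% of the Sema7a UMIs of the library. Sema3f was 767 CPM (725 to 811) against 152 to 326. These 3 ligands thus had their highest level in the same cells, as did the receptor Plxna1, at 453 CPM (421 to 487) against 41.3 to 301.

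Sema3g had the opposite pattern, with 13.4 CPM (8.43 to 20.4) in the aerocyte-like cluster and 40.8 (17.6 to 80.3) in the venous-like cluster (42 cells, led by Slc6a2 with Vwf and Vcam1). The other 6 endothelial-like clusters held 462 to 1007 CPM of it, the highest in cells led by Esm1 and Cxcr4. Sema3c was highest, at 3342 CPM (3165 to 3526), in 117 cells led by Slc6a6 and Vegfc. It was lowest, at 82.7 CPM (49 to 131), in 54 cells led by Fabp4. Their leading genes also held Gja5, an arterial connexin, and Vcam1, a gene of the venous marker list. The same 54 cells held the highest level of Plxnd1, 436 CPM (353 to 534), against 62.3 to 189.5 elsewhere, with the aerocyte-like cluster lowest. Robo4 was spread evenly by comparison, at 115 to 235 CPM over the 8 clusters, and had no UMI in the 38 epithelial-like cells. The venous-like cells led in Plxnc1, at 96.8 CPM (58.3 to 151), and the aerocyte-like cells held 1 UMI of it.

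**Figure D3:**
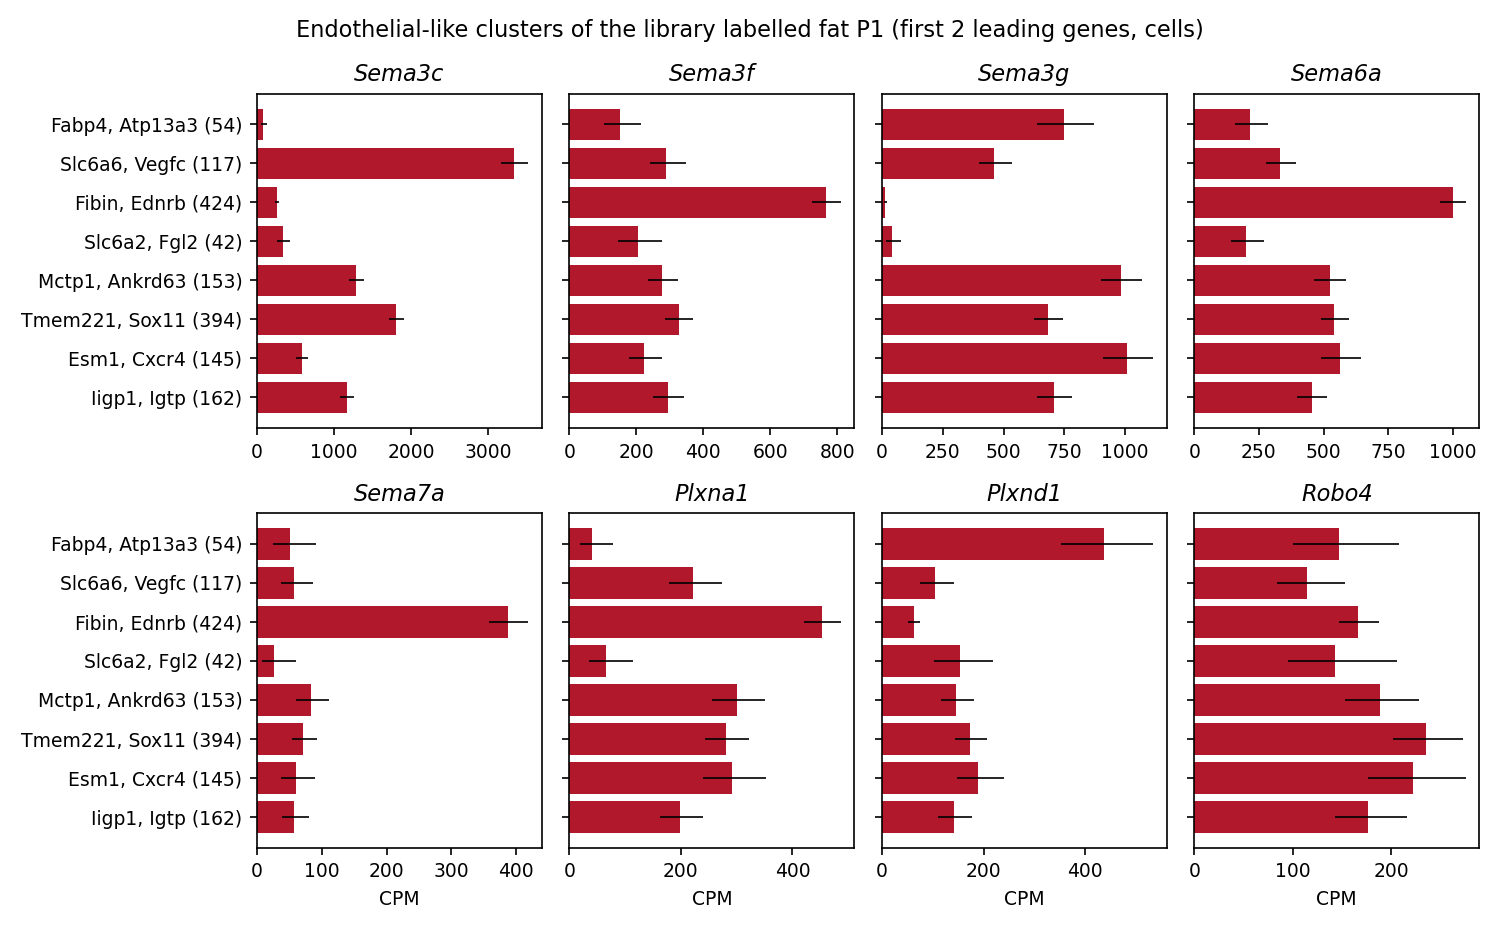
CPM of 8 genes in the 8 endothelial-like clusters of the library labelled fat P1, each cluster named by its first 2 leading genes with its number of cells; bars show CPM from 0 and lines the Poisson 95% interval. The Fibin, Ednrb (aerocyte-like) cluster is highest for Sema3f, Sema6a, Sema7a and Plxna1 and lowest for Sema3g and Plxnd1, and Sema3c peaks at 3342 CPM in the Slc6a6, Vegfc cluster.

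Fat P2, with 7544 of 7898 cells (95.5%) in 12 fibroblast-like clusters, had different levels of Slit2 and of class 3 semaphorins in different clusters. Slit2 was concentrated in 752 cells led by Igfbp2, Hc and Tnc, at 304 CPM (287 to 322) against 1.78 to 70.5 in the other 11, and these cells gave 61.5% of its UMIs. Sema5a followed, at 130.3 CPM (119 to 142) against 3.56 to 59.4. In the same cells Sema3c stood at 29.2 CPM (24 to 35.1) and Sema3d at 2.61 (1.25 to 4.79), the lowest of the 12 clusters for both. The next lowest were 800 cells led by Nrep, Aoc3 and Col4a1, with 68.1 CPM of Sema3c and 5.14 of Sema3d.

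Of the 12 clusters Sema3c was highest in 2, the interstitial-progenitor-like cells led by Smpd3, Dpp4 and Pi16 (755 cells, 1098 CPM, 1061 to 1137) and the cells led by Mrgprg and Krtdap (1268 cells, 1105 CPM, 1081 to 1129). Sema3d was highest in the same 2, at 112 CPM in the first and 112 (105 to 120.4) in the second. The first was named for its 10 leading genes, which held 4 interstitial progenitor markers, against 0 in the second. Over that whole marker list the mean log2 ratio to the other cells was 0.641 in the first and 0.854 in the second, so the markers do not set them apart. The regulatory-stroma-like cluster (475 cells, led by Fmo2, F3 and Clec11a) held 278 CPM of Sema3c (259 to 299) and the most Slit3, 276 CPM (256 to 296). Slit3 ranged only from 148 to 276 CPM over the 12 clusters. Plxna1 was highest in the Mrgprg and Krtdap cells, at 158 CPM (149 to 167), and lowest in the Igfbp2 cells, at 32.8 (27.4 to 39.1), the clusters where Sema3c was also highest and lowest. Of the 569 cells led by H19 and Scg3, 296 were among the highest doublet scores, and their 70.5 CPM of Slit2 and 607 of Sema3c lay between those of other clusters.

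**Figure D4:**
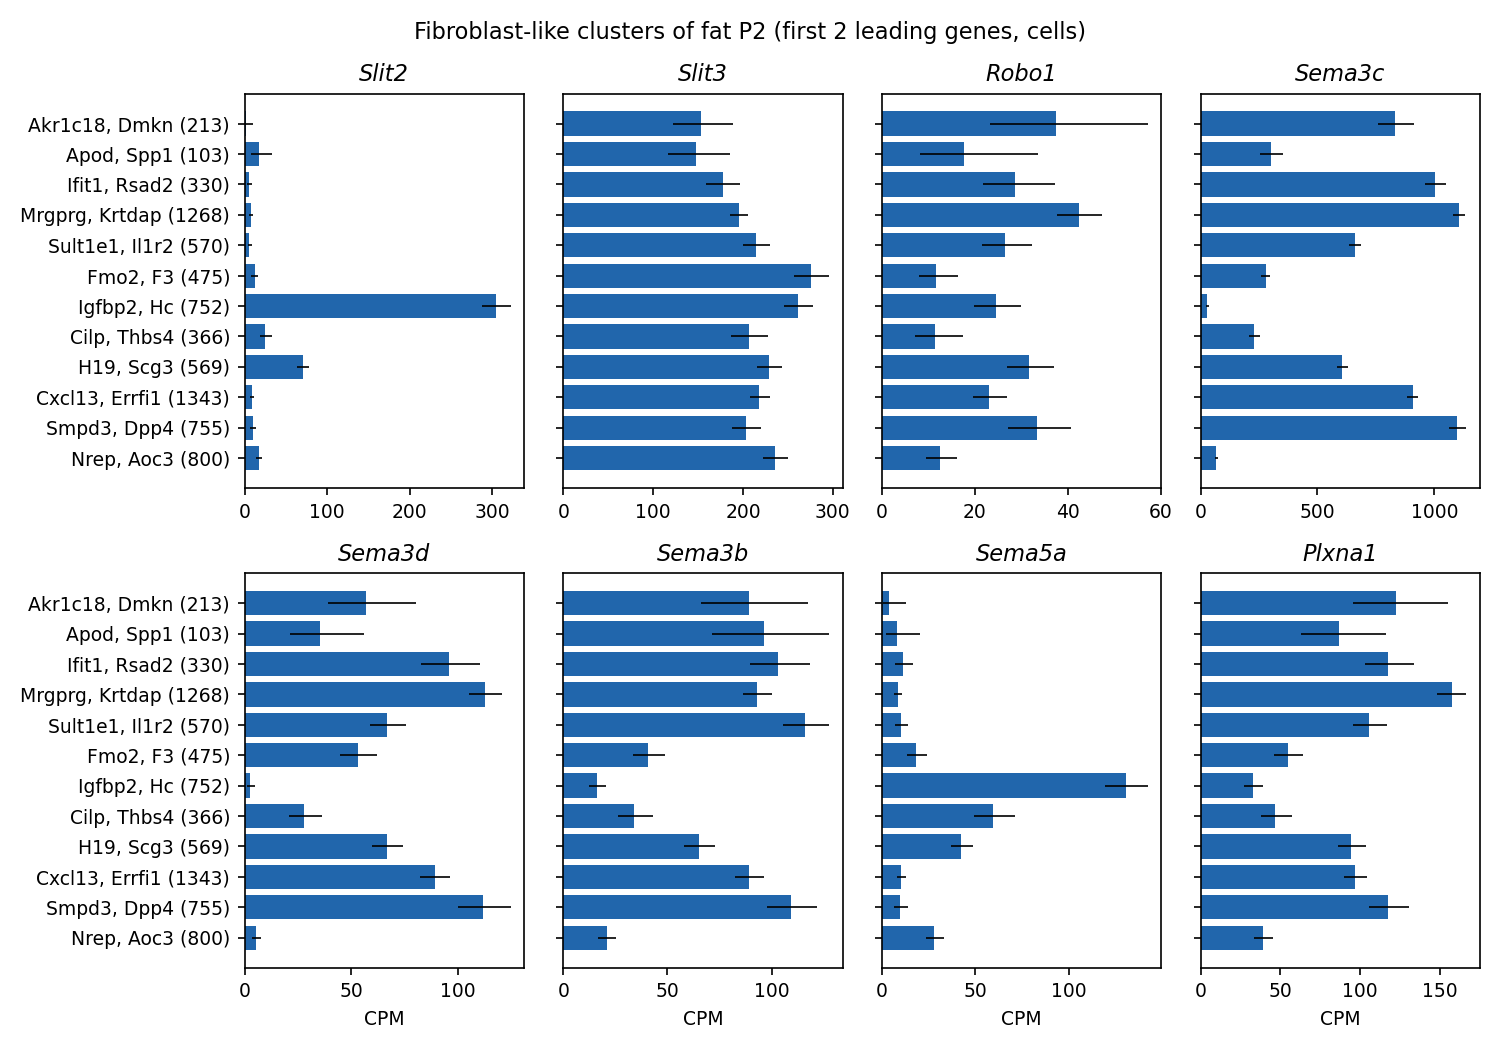
CPM of 8 genes in the 12 fibroblast-like clusters of fat P2, named by their first 2 leading genes with their number of cells; bars show CPM from 0 and lines the Poisson 95% interval. The Igfbp2, Hc cluster stands out with the most Slit2 (304 CPM) and Sema5a and the least Sema3c, Sema3d, Sema3b and Plxna1, while Slit3 is of similar height in all 12.

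In lung P2, 1165 of 1436 cells (81.1%) were fibroblast-like, and Slit2 and Robo2 were high and low together in the clusters given here. The 20 fibroblast-like cells led by Hhip and the 150 unnamed cells led by Adh7 are outside this statement. In 6 of the fibroblast-like clusters Slit2 ranged from 428 to 565 CPM and Robo2 from 259 to 391. The adventitial-like cluster (83 cells) had Scara5, Dcn and Serpinf1 among its leading genes. It was led by Igkc and also had Ighm and Iglc1, all 3 immunoglobulin genes, and an admixture of other cells was not tested. The adventitial-like cluster held 33.2 CPM of Slit2 (16.6 to 59.4) and 33.2 of Robo2 (16.6 to 59.4), but the most Slit3, 429 CPM (361 to 506). Both Slit2 and Robo2 stood at 38.3 CPM in 75 unnamed cells led by the mural genes Postn, Cox4i2 and Notch3. Those 75 cells had the most Sema5a, 332 CPM (248 to 435), and 109 CPM of Sema6d (63.2 to 174), against 0 to 7.07 in the 6 clusters.

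Sema3c was low in the 6 clusters, at 0 to 12 CPM. The 34 endothelial-like cells held 625 CPM (533 to 729) and 58.2% of its UMIs, the adventitial-like cells 151 CPM (112 to 199), and 20 cells led by Hhip with Actg2 524 CPM (359 to 740.0). In the fibroblast-like cells of lung P2 alone Sema3c stood at 33.1 CPM (26.8 to 40.3). Sema6a was likewise 309 CPM (245 to 384) in the endothelial-like cells, 53.3% of its UMIs. The same 34 cells held 179 CPM of Plxna1 (132 to 238), beside 309.8 in endothelial-like cells of fat-labelled P1 and 16.1 in lung-labelled P1. Plxna1 and Sema3c were picked here as the 2 genes called higher in fat-labelled than in lung-labelled P1. Both were above lung-labelled P1 in these 34 cells, a cluster set against a whole library, and the cause was not tested.

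**Figure D5:**
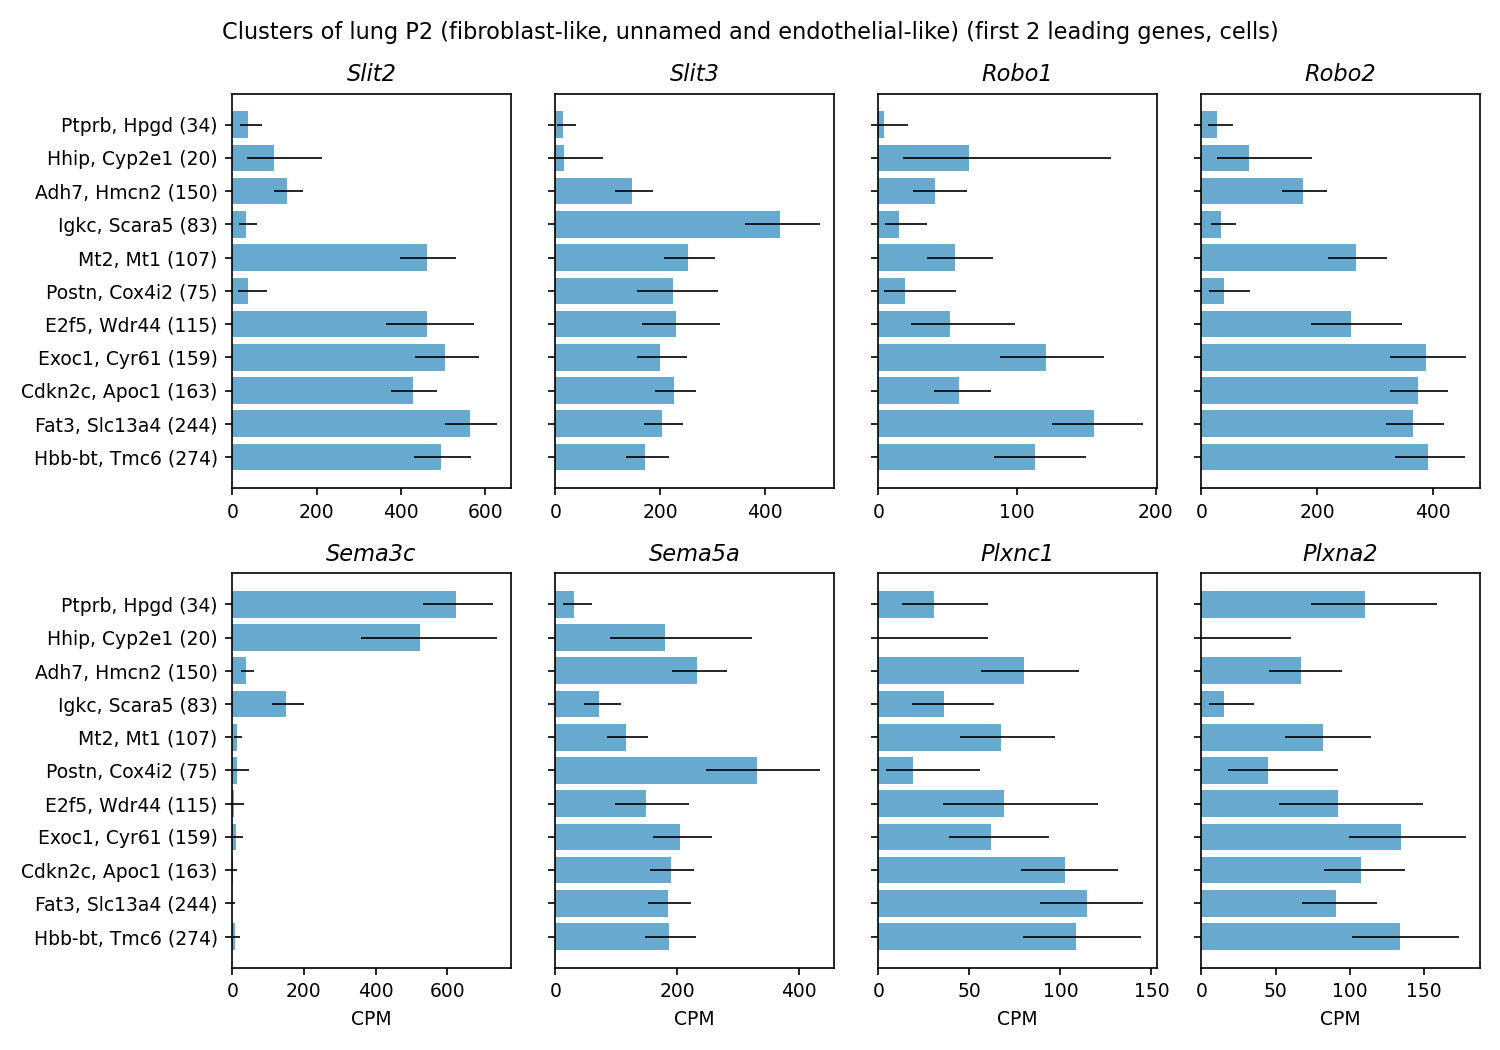
CPM of 8 genes in 11 clusters of lung P2 (fibroblast-like, unnamed and endothelial-like), named by their first 2 leading genes with their number of cells; bars show CPM from 0 and lines the Poisson 95% interval. Slit2 and Robo2 are high in 6 fibroblast-like clusters (Slit2 from 428 CPM) and low in the Igkc, Scara5 (adventitial-like), Postn, Cox4i2 and Ptprb, Hpgd (endothelial-like) clusters, whereas Sema3c is high in the Ptprb, Hpgd and Hhip, Cyp2e1 clusters.

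The partner genes were counted from lists of co-receptors, plexin transducers, slit and robo partners, netrin genes and proteases. Over all genes, 9.76% were higher in P1 and 8.34% in P2 in the fat pair, and 6.41% and 9.06% in the lung pair, and each list's counts are to be read against these shares. Of 19 co-receptors and partners of semaphorins, 8 entered the fat pair, with 5 higher in P1 (among them Nrp1, Kdr, Flt1 and Itga1) and 1 in P2 (Plxdc2), against 9.76% and 8.34% of all genes. In the lung pair 11 entered, with 3 higher in P1 and 3 in P2, against 6.41% and 9.06%. With the P1 libraries exchanged, 9 entered against fat P2, with 6 higher in P1 and 1 in P2, against 7.90% and 7.38%. Against lung P2 11 entered, with 4 in each direction, against 6.53% and 8.28%. Nrp1, the co-receptor of Sema3c and Sema3d, stood at 1294 CPM in fat-labelled P1, 94.3 in fat P2, 648 in lung-labelled P1 and 539 in lung P2, so that fat P2 was low. Nrp2, the co-receptor of Sema3f and Sema3g, stood at 15.7 CPM in fat-labelled P1, 15.7 in fat P2, 115 in lung-labelled P1 and 297 in lung P2. Fat-labelled P1, with the highest levels of both ligands, was thus low in Nrp2, and lung P2 the highest. Plxdc2, a plexin-domain protein, stood at 9.98 CPM in fat-labelled P1, 358 in fat P2, 8.05 in lung-labelled P1 and 1284 in lung P2, high in both P2 libraries.

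Plexin transducers carry the signal to the actin skeleton. Of 34 plexin transducers, 21 entered the fat pair with 1 higher in P1 (Mical2) and 1 in P2 (Rnd3), where 18.1% of all genes were called in either direction. In the lung pair 23 entered, with 3 higher in P1 (among them Rnd1 and Fes) and 4 in P2 (among them Rnd3, Rras2 and Mical3), where 15.5% of all genes were called. After exchange, 20 entered against fat P2, with 2 higher in P1 and 1 in P2, where 15.3% of all genes were called. Against lung P2 22 entered, with 1 higher in P1 and 2 in P2, where 14.8% of all genes were called. Rnd1, a GTPase that binds plexins, stood at 6.3 CPM in fat-labelled P1, 1.95 in fat P2, 103 in lung-labelled P1 and 1.03 in lung P2, high in 1 library only. Of 25 slit and robo partners, 20 entered the fat pair with 1 higher in each direction, both under the shares of all genes (9.76% and 8.34%). In the lung pair 17 entered with 2 higher in P2, near the 9.06% of all genes. After exchange, 19 entered against fat P2 with 1 higher in each direction, against 7.90% and 7.38% of all genes. Against lung P2 19 entered with 4 higher in P2, where 8.28% of all genes were. Sdc2, a heparan sulfate proteoglycan of the syndecan family, stood at 4.76 CPM in fat-labelled P1, 235 in fat P2, 7.15 in lung-labelled P1 and 331 in lung P2. Sdc3, of the same family, stood at 118 CPM in fat-labelled P1, 4.95 in fat P2, 79.6 in lung-labelled P1 and 25.3 in lung P2. Sdc2 was thus high in both P2 libraries and Sdc3 in both P1 libraries.

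Of 14 genes of the netrin system, 6 entered the fat pair and 7 the lung pair, with none higher in P1 and 2 higher in P2 in each, against 8.34% (fat) and 9.06% (lung) of all genes higher in P2. With the P1 libraries exchanged, 1 of 6 was higher in fat P2, against 7.38% of all genes. Against lung P2, 3 of 7 were higher in P2, against 8.28%. Unc5b, a netrin receptor that also binds Robo4, stood at 39.2 CPM in fat-labelled P1, 2.94 in fat P2, 36.7 in lung-labelled P1 and 5.93 in lung P2, above in P1 but not called. Unc5c, another netrin receptor, stood at 1.84 CPM in fat-labelled P1, 0.252 in fat P2, 1.79 in lung-labelled P1 and 151 in lung P2, and like Robo2 was high in lung P2. Of 9 proteases known to cut semaphorins, 8 entered the fat pair with 2 higher in P2 (Pcsk6 and Mmp14) and 8 the lung pair with 1 higher in P2 (Mmp14), against 8.34% and 9.06% of all genes. After exchange, 2 of 8 were higher in fat P2, against 7.38% of all genes. Against lung P2 7 entered and none was called, where 14.8% of all genes were. Pcsk6, a proprotein convertase, stood at 1.23 CPM in fat-labelled P1, 286 in fat P2, 37.5 in lung-labelled P1 and 14.2 in lung P2, highest in fat P2.

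The 14 genes below 30 CPM ended between Sema3e, at 28.1 CPM in fat P2 just under the limit, and Robo3 at 0, while Sema4c, at 42.9, lay just above it. Sema3e, the ligand of Plxnd1, stood at 21.7 CPM in fat-labelled P1, 28.1 in fat P2 and 12.4 in lung P2, with no UMI in lung-labelled P1. In fat-labelled P1 90.8% of its UMIs came from the 38 epithelial-like cells led by Ager, at 513 CPM, and in lung P2 79.2% came from the 34 endothelial-like cells. Sema3a, an Nrp1-dependent repellent, gave 77.4% of its fat-labelled P1 UMIs in the same 38 cells, at 357 CPM. Ager is a marker of flat alveolar epithelium, which lies outside both gates, and the part of these cells in the library's differences was not tested. Sema6c and Plxnb1 peaked at 15.9 CPM in fat P2 and 11.3 CPM in lung P2. The other 10 (Sema4a, Sema4b, Sema4d, Sema4f, Sema4g, Sema5b, Plxna3, Plxnb3, Slit1 and Robo3) stayed at or below 9.98 CPM.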

How the data were processed

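Single-cell RNA-seq libraries of sorted P1 and P2 cells of fat and lung were used as UMI counts deposited by the authors, 1 matrix per library. Per the submitters' processing notes the authors used Cell Ranger 3.1.0 and mm10, and the annotation release is not given in the sources used here. The 31053 features were summed to 31017 symbols. Barcodes with at least 1000 UMIs, 500 genes and at most 10% mitochondrial UMIs were kept: 1948 of 3783, 7898 of 9025, 652 of 1305 and 1436 of 2860 (fat P1, fat P2, lung P1 and lung P2 as labelled).

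UMIs were summed per library or cluster and scaled to CPM with exact Poisson 95% intervals. Shares of cells have Clopper-Pearson intervals, and intervals cover counting error only. They leave out the spread between cells, which for Sema3c was 6.83 times the binomial variance in fat-labelled P1 and 3.35 times in fat P2. Fold changes are ratios of CPM, and log2 ratios have 10 CPM added, which lowers those of low genes. With 1 library per group there was no replicate and no test. Genes at 30 CPM in 1 of 2 libraries entered a comparison, and 4-fold was the size of a call. Every member at 30 CPM or more in a library is given in full, and of each partner list at most 6 genes with the largest log2 ratios are named. The members and lists were chosen with earlier results of these data known.

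Clusters were made within a library without the members (2000 variable genes, 30 principal components, 15 neighbours, Leiden resolution 1, scanpy 1.11.5) and called X-like from the marker lists. Clusters with more markers of another type in their top 10 genes stayed unnamed. A caller's own threshold marked 10, 3, 33 and 3 doublets, so all barcodes were kept and the 30, 499, 3 and 16 highest scores were left out as an alternative. TMM factors came from edgeR 4.0.16 (R 4.3.3), and the other steps used Python 3.11.15, numpy 2.4.6, scipy 1.17.1, pandas 2.3.3 and matplotlib 3.10.9. The 4-fold rule was tried on simulated counts of well-covered genes with counting error alone. Genes near 30 CPM and the spread between cells or libraries were not covered. Gene coordinates are GENCODE vM21 (GRCm38), matched by gene ID, and promoters are from RefSeq GRCm38.p6.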

Additional observations from a re-analysis of the deposited data

Results flagged for a closer look

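Plxna1 had opposite directions in the labelled tissues: the log2 ratio of P1 over P2 (10 CPM added) was 1.55 in fat and -1.73 in lung. With the P1 libraries exchanged it was -1.97 against fat P2 and 1.79 against lung P2, so the directions changed places. Plxnc1 had log2 ratios of P1 over P2 of 1.30 in fat and -2.98 in lung, and of lung over fat of 2.85 in P2 and -1.43 in P1, with 1 UMI in lung-labelled P1. Sema6a had a log2 ratio of lung over fat of 1.10 in P2 and -1.90 in P1, as labelled. Each was singled out because its 2 ratios pointed in opposite directions with at least a 2-fold change in each, 1 library against 1 library. The difference between the ratios was not tested. Since markers go against the P1 labels, the tissue behind each P1 value is in doubt.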

How the results depend on the processing

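The comparisons were repeated with 1 CPM added in place of 10, with a minimum of 50 CPM or none, with TMM scaling, with all deposited barcodes, without the highest doublet scores, with endothelial-like P1 and fibroblast-like P2 clusters alone, with the mean over cells, and with the P1 libraries exchanged. Of the member counts, that of genes higher in fat P2 than in lung P2 rose from 1 to 2 with 1 CPM added (Sema3b). The others stayed within 1.5 times: 9 in all alternatives for fat-labelled P1 over fat P2, 2 to 4 for the reverse, 5 to 7 for lung-labelled P1 over lung P2, 6 to 8 for the reverse, 5 to 6 for lung P2 over fat P2, and 1 and 2 to 3 between the P1 libraries. Equal counts can hold other genes: on exchange Plxna4 left the 9 over fat P2 and Sema6b joined them. Of 65 log2 ratios, 27 stayed within their counting interval with 1 CPM added and 36 with TMM scaling. On exchange 9 of 36 did. Sema3c reversed in the lung pair from -2.51 to 3.62 on exchange, as exchange puts in another library. The alternatives by cluster, doublet score or mean over cells treat lung-labelled P1 barcodes as cells. TMM scaling shifted the median log2 ratio of all genes by -0.32 in the fat pair and -0.31 between the P2 libraries, and by less than 0.1 in the other 2 comparisons. The limit at this depth is lung-labelled P1, where 3 UMIs are 2.68 CPM and where Sema3c, Slit2, Sema5a, Robo1, Sema3b and Plxnc1 rest on 5 UMIs or fewer. No paired analysis was possible because each group has 1 library and the labels carry no replicate numbers, and no replicate could be left out.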

Other observations

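Several members were found in small clusters outside the endothelial-like and fibroblast-like classes, seen after the values were known and given as values of 1 library each. In fat P2, the 14 mural-like cells led by Acta2, Myh11 and Rgs5 held 306 CPM of Sema5a (140.0 to 581), 272 of Plxnb2 (118 to 536) and 170.1 of Sema3f (55.2 to 397), where the library as a whole stood at 29.2, 56.9 and 1.22 CPM. These mural-like values rest on 9 UMIs in 3 cells (Sema5a), 8 UMIs in 5 cells (Plxnb2) and 5 UMIs in 5 cells (Sema3f). Their intervals leave out the spread between cells. The 17 cells led by Fabp4 and Aqp1 held 177 CPM of Robo4 (108 to 274) and 62 of Sema6b (24.9 to 128).

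Sema3e was highest in clusters with different names in the 3 libraries that held it, and whether the cells differ in kind was not tested. In fat P2, among the named clusters, it was highest at 78 CPM (69.3 to 87.5) in 570 fibroblast-like cells led by Sult1e1 and Il1r2, 23.8% of its UMIs. In lung P2 the 34 endothelial-like cells held 145 CPM (103 to 199), from 23.5% of the cells. They held 99.2 CPM of Sema3a (64.8 to 145), from 11.8% of the cells. Plxnb1 was highest, at 109 CPM (63.2 to 174), in the 75 lung P2 cells led by Postn and Cox4i2, which also held the most Sema5a.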
